A study of Mus musculus with 8 samples.

Results

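The genes described here are induced by type I interferon and carry out or tune the antiviral state of a cell. They were taken from a fixed list of 39 symbols, matched by current or earlier name to the probe sets of a mouse whole-transcript array, and the matching rule used no measured value. Of the 39, 38 were named on the array, among 30783 named genes in all, and Ifi44 was not. A gene was tested when it lay above the 50th percentile of the named genes on at least 1 array, and 36 members passed. Oas3 and Oasl1 did not pass, with levels of 7.36 to 7.86 and 7.73 to 8.12, and enter no count below.

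RNA came from microglia of C57Black/6J mice and was measured on 8 arrays, 1 for each group. A control genotype, labelled FL or F/F, and icKO mice, a conditional knockout of connexin 47 (Cx47) directed at oligodendroglia per the title, were each sampled in 4 states. These were naive, experimental autoimmune encephalomyelitis (EAE, in which an autoimmune attack on myelin models multiple sclerosis), EAE under the anti-rheumatic drug iguratimod, and EAE labelled p50, a term the labels do not explain. The label of the control iguratimod array calls its mice wt, whereas the other controls carry the FL or F/F label. The driver of the knockout, the animals' age and sex, the number pooled on an array, and the dose and timing of EAE and iguratimod are not given in the sources used here. Cx47 acts in oligodendrocytes, so microglial RNA is no direct check of the deletion, which was not checked here.

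Type I interferons bind the receptor IFNAR1 and IFNAR2, and the kinases TYK2 and JAK1 then activate STAT2, which joins IRF9 in the complex ISGF3. ISGF3 binds interferon-stimulated response elements (ISREs) near the start sites of the genes described here, whose products sense viral RNA, degrade it, block its translation or stop virus entry and release. In the central nervous system microglia are both producers and targets of type I interferon, and interferon beta is used as a treatment of multiple sclerosis.

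Promoter windows from RefSeq (GRCm38.p6) were on hand for 28 of the 38 members named on the array, running from 250 bases before to 50 bases after the gene start. The ISRE core, searched on both strands and shown in capitals in the sequences below, lay in the windows of 15 of these 28 members (53.6%), against 1079 of 27025 genes with a window (3.99%). The gamma-activated site (GAS), an element of the response to interferon gamma, searched as TTCNNNGAA on both strands, lay in 7 of the 28 (25.0%), against 9.55% of all genes with a window. In only the 150 bases before the start, GAS lay in 2 of the 28 (7.14%), against 4.77%. A match describes letters in this window and is not a measured binding site, and the 2 motifs can share bases. The 200 bases before the start of 8 members are given because these members carry the expression results below. Ifitm3 and Irf7 had the largest and the smallest difference in EAE among the members that passed the test, and Ifit3 and Ifit3b are near copies. The other 4 were chosen after their values were seen. Isg15 had a small difference in EAE, Ifit1 and Rsad2 were lower in p50 than in EAE, and Bst2 stood apart in p50. Each reads 5′ to 3′ on the strand of its gene, with ISRE core matches in capitals.
Ifitm3: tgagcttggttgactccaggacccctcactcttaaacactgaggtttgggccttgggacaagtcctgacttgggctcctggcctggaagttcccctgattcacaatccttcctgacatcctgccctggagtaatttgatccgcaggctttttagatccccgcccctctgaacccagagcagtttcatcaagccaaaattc
Irf7: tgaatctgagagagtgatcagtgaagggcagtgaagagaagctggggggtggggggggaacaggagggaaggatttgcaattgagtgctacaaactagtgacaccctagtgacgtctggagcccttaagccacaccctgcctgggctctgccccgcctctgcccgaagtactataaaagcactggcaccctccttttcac
Isg15: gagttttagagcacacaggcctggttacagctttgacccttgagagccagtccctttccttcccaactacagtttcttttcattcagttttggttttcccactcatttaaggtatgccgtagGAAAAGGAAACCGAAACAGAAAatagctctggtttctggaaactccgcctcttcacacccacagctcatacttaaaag
Ifit1: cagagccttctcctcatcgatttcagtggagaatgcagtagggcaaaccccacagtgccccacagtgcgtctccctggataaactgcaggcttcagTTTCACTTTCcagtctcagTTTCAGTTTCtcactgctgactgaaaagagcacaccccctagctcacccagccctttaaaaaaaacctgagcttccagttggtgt
Ifit3: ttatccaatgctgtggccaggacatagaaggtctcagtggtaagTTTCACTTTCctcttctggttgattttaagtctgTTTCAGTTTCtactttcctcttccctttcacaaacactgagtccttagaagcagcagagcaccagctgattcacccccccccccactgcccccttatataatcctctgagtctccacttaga
Ifit3b: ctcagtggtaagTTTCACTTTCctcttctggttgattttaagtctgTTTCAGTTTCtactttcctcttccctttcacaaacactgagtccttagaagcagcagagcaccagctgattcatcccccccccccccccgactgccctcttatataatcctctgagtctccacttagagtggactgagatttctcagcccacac
Rsad2: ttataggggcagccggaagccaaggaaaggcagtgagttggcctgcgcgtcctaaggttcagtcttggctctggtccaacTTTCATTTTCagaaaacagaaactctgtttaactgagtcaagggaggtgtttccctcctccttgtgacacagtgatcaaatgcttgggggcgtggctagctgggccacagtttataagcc
Bst2: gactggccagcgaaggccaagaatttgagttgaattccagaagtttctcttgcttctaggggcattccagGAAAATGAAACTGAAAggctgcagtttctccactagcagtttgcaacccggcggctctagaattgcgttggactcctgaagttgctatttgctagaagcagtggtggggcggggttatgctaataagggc
The windows lie at chr7:141010745-141010944 (minus strand) for Ifitm3, chr7:141266425-141266624 (minus) for Irf7, chr4:156200819-156201018 (minus) for Isg15, chr19:34640689-34640888 (plus) for Ifit1, chr19:34583329-34583528 (plus) for Ifit3, chr19:34607757-34607956 (plus) for Ifit3b, chr12:26456453-26456652 (minus) for Rsad2 and chr8:71537473-71537672 (minus) for Bst2. The stretch of Ifitm3 holds no ISRE core, and its 2 matches lie in the 50 bases after the start. No match was found in the window of Irf7. Isg15 holds 3 overlapping matches whose last base lies 56 bases before the start. Ifit1, Ifit3 and Ifit3b hold 2 separate matches each, which read as the reverse complement. Rsad2 holds 1 match, 110 bases before the start. Bst2 holds 2 overlapping matches and a GAS match that shares bases with the first of them. The printed windows of Ifit3 and Ifit3b match at 138 of 168 bases (82.1%) at the best gapless alignment, a shift of 32 bases. These 2 genes are close copies, so their probe sets may share RNA and their values are uncertain.

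All levels below are log2(intensity + 16) from the deposited intensities, with the control array first and the icKO array second in each state. Array medians ran from 243 to 269 intensity units, and the filter level, the 50th percentile of the named genes on an array, lay between 8.12 and 8.24. Microglial markers were bright: P2ry12 ran from 12.67 to 14.17 and Tmem119 from 10.30 to 11.91, above 97.3% and 91.2% of named genes by mean level. Markers of oligodendrocytes, astrocytes, neurons and endothelium had medians of 7.20 to 7.89 on every array, below the filter level. Single markers stood above it, among them the astrocyte marker Slc1a3 (9.07 to 10.06) and the oligodendrocyte marker Mag (8.24 to 8.59). Markers of T and NK cells, B cells and plasmacytoid dendritic cells had medians of 7.86 to 8.38. Here too single markers were brighter, among them Ighm (13.65 to 14.21), Klrb1c (9.40 to 9.94) and Tcf4 (9.89 to 10.47). Markers of blood-borne myeloid cells differed between arrays. The summed intensity of 9 monocyte markers was 11.84 and 11.43 in naive, 14.73 and 14.79 in EAE, 12.42 and 13.62 with iguratimod, and 11.86 and 12.21 in p50, on the log2 scale. For 10 neutrophil markers it was 14.68 and 12.71, 19.78 and 16.65, 15.33 and 17.02, and 12.65 and 13.70. No marker was listed at an intensity of 0. In RNA of a cell population, fewer cells of a type and less RNA per cell cannot be told apart.

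Interferon-stimulated genes stood higher in EAE than in naive microglia across nearly the whole list. On the fitted difference all 36 tested members were above 0, with a median of 1.07 and a range of 0.00 to 2.56, against a median of 0.01 over all 18319 genes tested. The filter can admit a gene through the group where it is high. Cmpk2 passed it only on the control EAE array, and Oasl2 and Slfn5 only on the EAE and icKO iguratimod arrays. Irf7, Oas2 and Usp18 lay below the filter level on both naive arrays and passed it only on other arrays. These members are no support for a difference, and they are in the counts here and below. In 35 of 36 members both EAE arrays lay above both naive arrays, a pattern shown by 29.4% of all genes, and Ifit3b was the exception. The difference passed the test (limma, additive in state and genotype over 8 arrays, Benjamini-Hochberg adjusted p under 0.05) for 9 members: Irf7, Stat2, Zbp1, Oas2, Parp14, Ifitm3, Rsad2, Samhd1 and Sp100 rose. That is 9 of 36 against 3.31% of all genes tested, and no member passed in the lower direction (0.382%). Irf7 and Oas2, below the filter level on both naive arrays, are among the 9. By genotype, 17 of 36 members were at least 2-fold higher in EAE in control (4.57% of all genes) and 21 of 36 in icKO (4.7%), with medians of 0.98 and 1.10. None was 2-fold lower in either genotype (3.16% and 1.0% of all genes). The count of calls depends on the arrays that set the spread. It was 1 (Stat2) without either p50 array or after quantile normalization, 2 (Stat2 and Samhd1) without a filter, 18 without either iguratimod array, and 0 without any 1 of the naive or EAE arrays.

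**Figure D1:**
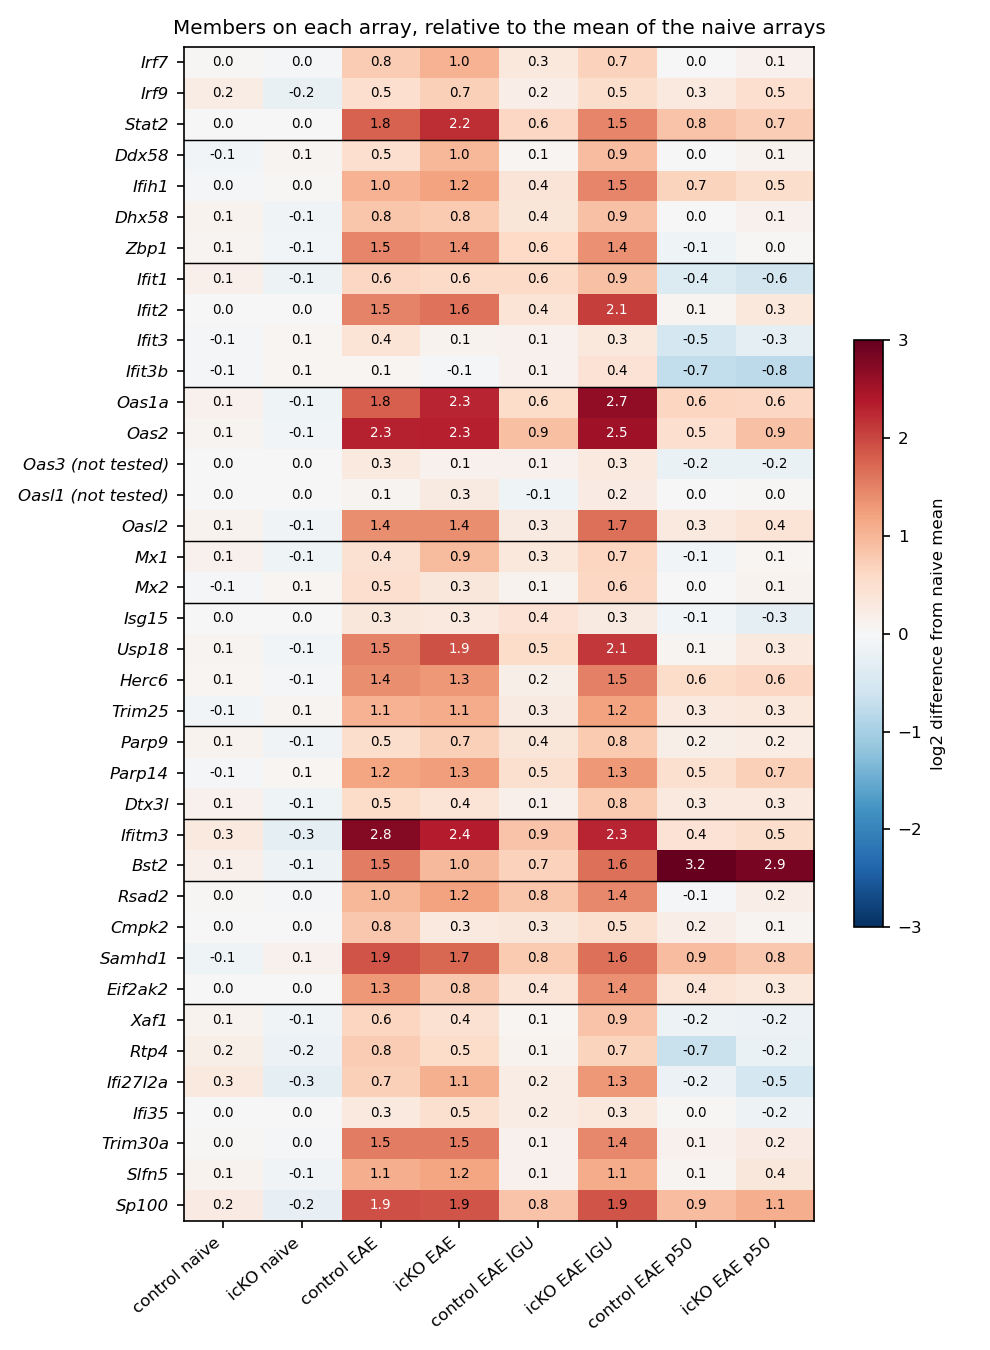
Heat map of the 38 members (rows, grouped by role) on the 8 arrays (columns), as the log2 difference from the mean of the 2 naive arrays, with the value printed in each cell. Differences are largest on both EAE arrays and on the icKO iguratimod array, where Oas1a stands highest of its 8 values, and Bst2 is highest on the p50 arrays.

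Among the signalling factors, Stat2, a subunit of ISGF3, rose most. Stat2 lay at 8.75 and 8.71 in naive, 10.49 and 10.94 in EAE, 9.36 and 10.19 with iguratimod, and 9.58 and 9.46 in p50. The iguratimod and p50 arrays all lay between the naive and the EAE arrays. The EAE difference was 1.99 ± 0.25 (SE; adjusted p = 0.0240), or 3.96-fold. Irf7, the transcription factor that amplifies interferon production, lay at 8.06 and 7.98 in naive, 8.77 and 9.05 in EAE, 8.33 and 8.71 with iguratimod, and 8.03 and 8.14 in p50. The 2 EAE arrays were its highest together with the icKO iguratimod array, and the EAE difference was 0.89 ± 0.15 (adjusted p = 0.0413). Irf9, the DNA-binding subunit of ISGF3, lay at 8.89 and 8.46 in naive, 9.17 and 9.38 in EAE, 8.88 and 9.20 with iguratimod, and 8.98 and 9.17 in p50. Its icKO naive array was the lowest of the 8, and its EAE difference of 0.60 ± 0.20 did not pass (adjusted p = 0.192).

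All 4 nucleic acid sensors were higher in EAE on the fitted difference, and 1 passed. Zbp1, a sensor of Z-form nucleic acid that can trigger necroptosis, lay at 8.92 and 8.74 in naive, 10.29 and 10.19 in EAE, 9.44 and 10.19 with iguratimod, and 8.71 and 8.86 in p50. The 2 EAE arrays and the icKO iguratimod array were its 3 highest, and the EAE difference was 1.41 ± 0.24 (adjusted p = 0.0413). Ddx58, which encodes the RNA sensor RIG-I, lay at 8.90 and 9.05 in naive, 9.47 and 9.97 in EAE, 9.03 and 9.91 with iguratimod, and 8.99 and 9.08 in p50. It had the smallest EAE difference of the sensors, 0.75 ± 0.22 (adjusted p = 0.139), and in EAE and with iguratimod the icKO array was above the control array. Ifih1 (MDA5) and Dhx58 (LGP2, a regulator of both) differed by 1.12 and 0.82 without passing.

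None of the 4 IFIT genes, whose products bind viral RNA and block its translation, passed in EAE, and they differed among themselves although they are neighbours on chromosome 19. Ifit2 lay at 8.74 and 8.76 in naive, 10.23 and 10.37 in EAE, 9.16 and 10.84 with iguratimod, and 8.84 and 9.08 in p50. Its EAE difference of 1.55 ± 0.41 (adjusted p = 0.112) was the largest of the family, and its icKO iguratimod array was the highest of the 8. Ifit1 lay at 8.80 and 8.51 in naive, 9.27 and 9.22 in EAE, 9.23 and 9.53 with iguratimod, and 8.24 and 8.10 in p50, a difference of 0.59 in EAE. Ifit3b lay at 9.54 and 9.65 in naive, 9.65 and 9.54 in EAE, 9.71 and 10.02 with iguratimod, and 8.84 and 8.80 in p50. Its EAE and naive arrays overlapped, with a difference of 0.00 ± 0.15, and Ifit3 differed by 0.26 ± 0.17. The sign of Ifit3b was not stable: it was -0.087 after quantile normalization, -0.025 without the control naive array and -0.12 without the control EAE array.

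The OAS genes make oligoadenylates that switch on RNase L, which cuts RNA. Oas2 lay at 7.51 and 7.33 in naive, 9.74 and 9.76 in EAE, 8.31 and 9.97 with iguratimod, and 7.92 and 8.29 in p50. It was dim on the naive arrays and rose in EAE by 2.33 ± 0.43 (adjusted p = 0.0492), or 5.03-fold. Oas1a lay at 8.93 and 8.67 in naive, 10.60 and 11.08 in EAE, 9.35 and 11.47 with iguratimod, and 9.45 and 9.43 in p50, and its EAE difference of 2.04 ± 0.55 did not pass (adjusted p = 0.121). Its icKO iguratimod array exceeded both EAE arrays. Oasl2, an OAS-like gene, lay at 7.75 and 7.56 in naive, 9.04 and 9.06 in EAE, 7.92 and 9.31 with iguratimod, and 7.96 and 8.06 in p50. Its difference of 1.40 ± 0.38 was the smallest among the tested OAS genes (adjusted p = 0.122).

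The dynamin-like Mx GTPases trap viral nucleoprotein, and the C57BL/6 allele of Mx1 is known to be defective. Mx1 lay at 8.34 and 8.07 in naive, 8.65 and 9.14 in EAE, 8.51 and 8.86 with iguratimod, and 8.12 and 8.27 in p50, and Mx2 lay at 8.30 and 8.42 in naive, 8.85 and 8.69 in EAE, 8.45 and 8.97 with iguratimod, and 8.37 and 8.46 in p50. Both EAE arrays were above both naive arrays in each gene, with differences of 0.69 ± 0.20 and 0.42 ± 0.18 that did not pass (adjusted p = 0.141 and 0.282).

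In the ISG15 system, the modifier itself was the member that differed least. Isg15, a ubiquitin-like protein, lay at 8.43 and 8.42 in naive, 8.76 and 8.71 in EAE, 8.85 and 8.70 with iguratimod, and 8.34 and 8.16 in p50. Its values spanned a narrow range, and its EAE difference of 0.31 ± 0.12 did not pass (adjusted p = 0.241). Usp18, which removes ISG15 from proteins and restrains the interferon receptor, lay at 8.14 and 7.96 in naive, 9.55 and 9.96 in EAE, 8.60 and 10.18 with iguratimod, and 8.14 and 8.33 in p50. Its EAE difference was 1.71 ± 0.40 (adjusted p = 0.0857). Herc6, the main ISG15 ligase of the mouse, and Trim25, a ubiquitin ligase acting on RIG-I, differed by 1.35 ± 0.37 and 1.08 ± 0.24 without passing.

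Parp14, an ADP-ribosyltransferase, lay at 8.85 and 8.97 in naive, 10.10 and 10.17 in EAE, 9.39 and 10.22 with iguratimod, and 9.39 and 9.62 in p50 and rose in EAE by 1.22 ± 0.21 (adjusted p = 0.0412). Dtx3l, a ubiquitin ligase that works as a complex with Parp9, lay at 8.56 and 8.32 in naive, 8.98 and 8.86 in EAE, 8.58 and 9.23 with iguratimod, and 8.74 and 8.74 in p50. Its EAE difference was 0.48 ± 0.23 (adjusted p = 0.328), and that of Parp9 was 0.62 ± 0.17 (adjusted p = 0.132). The icKO array was above the control array in Parp14 in all 4 states.

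The membrane effectors held the largest EAE difference of the list. Ifitm3, which blocks fusion of viruses in endosomes, lay at 9.06 and 8.46 in naive, 11.51 and 11.12 in EAE, 9.62 and 11.04 with iguratimod, and 9.20 and 9.29 in p50. Again the 2 EAE arrays and the icKO iguratimod array were the 3 highest, and the EAE difference was 2.56 ± 0.47 (adjusted p = 0.0490), or 5.88-fold. Bst2 (tetherin), which holds budding virus at the cell surface, lay at 8.84 and 8.55 in naive, 10.23 and 9.67 in EAE, 9.40 and 10.35 with iguratimod, and 11.86 and 11.55 in p50. In EAE it differed from naive by 1.25 ± 0.36 (adjusted p = 0.138), and the p50 arrays lay above every other array.

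Among the enzymes acting on nucleotides and translation, Samhd1, which depletes the nucleotides needed for viral DNA synthesis, lay at 9.57 and 9.81 in naive, 11.58 and 11.42 in EAE, 10.48 and 11.34 with iguratimod, and 10.62 and 10.50 in p50. It rose in EAE by 1.81 ± 0.26 (adjusted p = 0.0305), and both p50 arrays stayed above both naive arrays. Rsad2 (viperin), which makes a chain-terminating nucleotide, lay at 8.53 and 8.47 in naive, 9.51 and 9.71 in EAE, 9.32 and 9.94 with iguratimod, and 8.45 and 8.71 in p50 and rose in EAE by 1.11 ± 0.18 (adjusted p = 0.0365). Its iguratimod arrays lay about as high as EAE and its p50 arrays close to naive. Cmpk2, a nucleotide kinase encoded beside Rsad2 on chromosome 12, lay at 7.47 and 7.50 in naive, 8.30 and 7.77 in EAE, 7.83 and 7.96 with iguratimod, and 7.68 and 7.57 in p50, with an EAE difference of 0.55 ± 0.19 (adjusted p = 0.189). Eif2ak2, the kinase PKR that stops translation, differed by 1.05 ± 0.33 (adjusted p = 0.163).

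The remaining 7 members were all higher in EAE on the fitted difference, and Sp100, a nuclear body protein, passed. Sp100 lay at 9.69 and 9.20 in naive, 11.38 and 11.33 in EAE, 10.30 and 11.33 with iguratimod, and 10.37 and 10.54 in p50, an EAE difference of 1.91 ± 0.34 (adjusted p = 0.0458). Trim30a, a regulator of innate signalling, and Slfn5, of the Schlafen family, differed by 1.53 ± 0.35 (adjusted p = 0.0823) and 1.13 ± 0.28 (adjusted p = 0.0967). Ifi35 lay at 8.97 and 8.93 in naive, 9.24 and 9.43 in EAE, 9.17 and 9.26 with iguratimod, and 8.98 and 8.79 in p50. Its difference of 0.39 ± 0.14 (adjusted p = 0.213) was the smallest of the 7. Ifi27l2a, Rtp4 and Xaf1 differed by 0.89, 0.66 and 0.55.

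**Figure D2:**
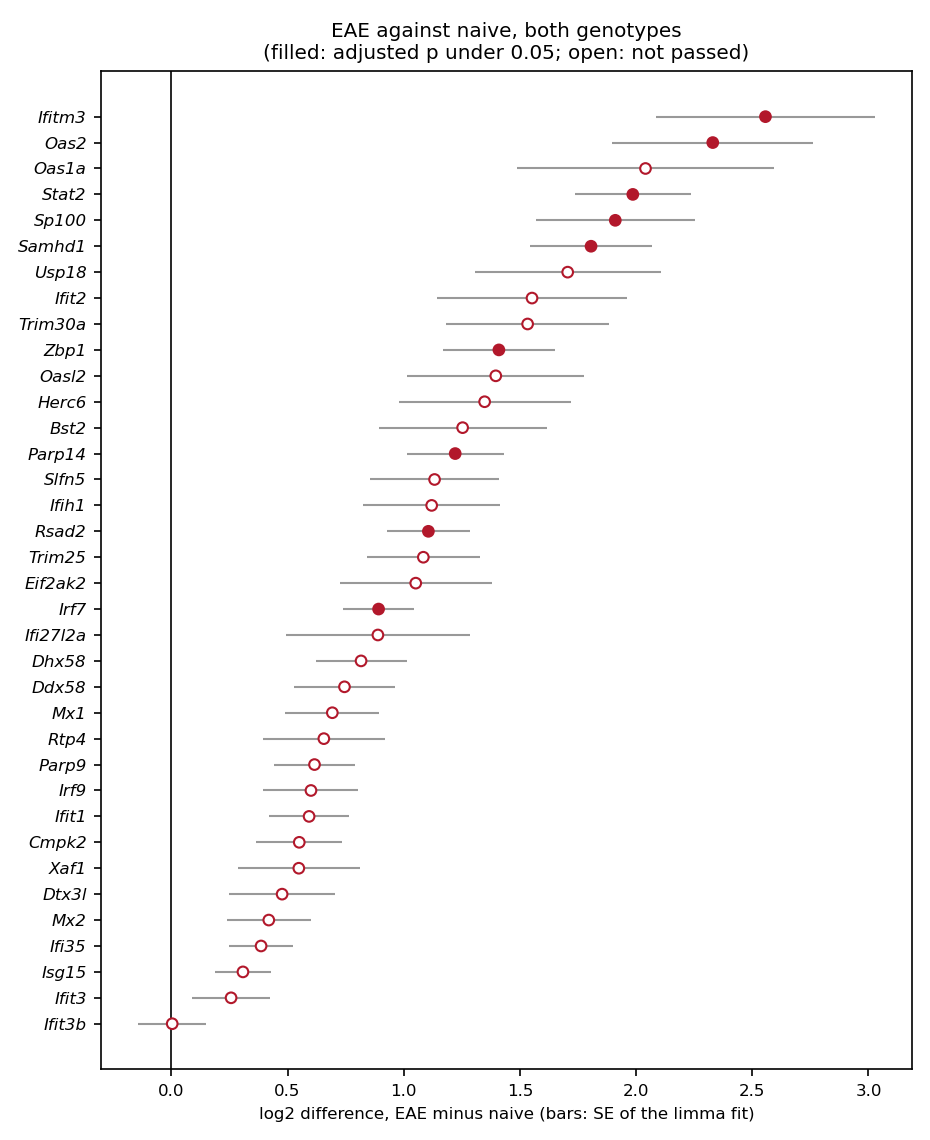
Log2 difference of EAE against naive for each tested member, as the fitted value (points) with its standard error (bars). The values run from 0.00 for Ifit3b to 2.56 for Ifitm3, and the 9 members that passed the test are filled.

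The ISRE core was set beside the size of the difference, as a description with no test. The median EAE difference was 1.11 in the 14 tested members with a match, 0.99 in the 12 with a window and no match, and 0.85 in the 10 with no window in the table.

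Genes upstream of the members were described from lists chosen by role. Of 8 tested interferon genes none passed in EAE against naive, all 8 were lower on the fitted difference, and their median was -0.21. Ifna4 was lowest at -0.67 ± 0.14 (adjusted p = 0.0703) and Ifnz least low at -0.11. Ifnb1, the gene of interferon beta, lay at 8.43 and 8.01 in naive, 7.89 and 8.21 in EAE, 8.55 and 8.40 with iguratimod, and 7.67 and 7.86 in p50, a difference of -0.17 ± 0.20 (adjusted p = 0.690). The interferon alpha genes are near-identical copies, so their values are uncertain. Ifng, the gene of interferon gamma, lay at 7.06 to 7.35 over all arrays, below the filter level, and was not tested. Among 8 tested receptor chains and kinases, Ifnar1, a chain of the type I receptor, rose by 0.92 ± 0.16 (adjusted p = 0.0424) and Ifngr2, a chain of the interferon gamma receptor, by 0.90 ± 0.16 (adjusted p = 0.0429), and Ifngr1 was lowest at -0.21. None of 11 adaptors and kinases of interferon induction and none of 5 negative regulators passed. Their largest differences were 0.70 for Tlr9, a DNA sensor (adjusted p = 0.173), and 0.65 for Adar, an RNA editor that masks self RNA (adjusted p = 0.0972), and their lowest were -0.33 for Tlr7 and 0.05 for Pias1.

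Targets better known for their response to interferon gamma rose as well. Of 12 such genes 9 passed in EAE against naive (3.31% of all genes passed higher), with a list median of 1.14. They included Cxcl9, a T cell chemokine (5.49 ± 0.86, adjusted p = 0.0334), H2-Ab1, an MHC class II chain (5.10 ± 0.56, adjusted p = 0.0214), Gbp2, a guanylate-binding protein (3.03 ± 0.31, adjusted p = 0.0199), and Tap1, a peptide transporter chain (1.66 ± 0.22, adjusted p = 0.0259). The others were Cd274 (1.45), Gbp3 (1.14), Psmb8 (1.13), Psmb9 (0.91) and Icam1 (0.80), and Irf1 was lowest of the 12 at 0.17. Cxcl9, Gbp2, Ciita and Irf1 lay below the filter level on both naive arrays and entered through other arrays, so they are no support for a difference. Monocyte markers moved in the same comparison: all 8 tested were higher and 3 passed, with Ly6c2 at 4.32 ± 0.40 (adjusted p = 0.0193). Their list median was 2.06. Of 9 neutrophil markers none passed, with a median of 3.56. Of 9 microglia markers none passed either, 8 were lower on the fitted difference and the median was -0.48, with Gpr34 lowest at -1.48 ± 0.28 (adjusted p = 0.0513). In icKO 4 of the 9 were at least 2-fold lower (1.0% of all genes), and in control none was (3.16%). The part of these cells in the members' difference was not tested. Of 5 tested markers of plasmacytoid dendritic cells, which secrete type I interferon, none passed and the median was 0.11. Their part was not tested either.

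Under iguratimod the members' median difference from EAE was below 0 in control and above 0 in icKO, a genotype difference that passed the test for no gene. In control microglia 34 of 36 members were lower with iguratimod than in EAE alone, with a median of -0.65 against -0.0055 over all genes tested. Of the 36, 10 were at least 2-fold lower, against 1.69% of all genes. In icKO microglia 24 of 36 were higher, with a median of 0.15, and none was past 2-fold either way (0.688% of all genes higher and 1.52% lower). The 10 in control were Ifitm3 (-1.90), Oas2 (-1.43), Trim30a (-1.42), Oas1a (-1.25), Herc6 (-1.21), Stat2 (-1.13), Oasl2 (-1.12), Samhd1 (-1.10), Sp100 (-1.09) and Ifit2 (-1.07). In icKO the extremes were Stat2 at -0.76 and Bst2 at 0.68. These are single arrays with no replicate check.

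**Figure D3:**
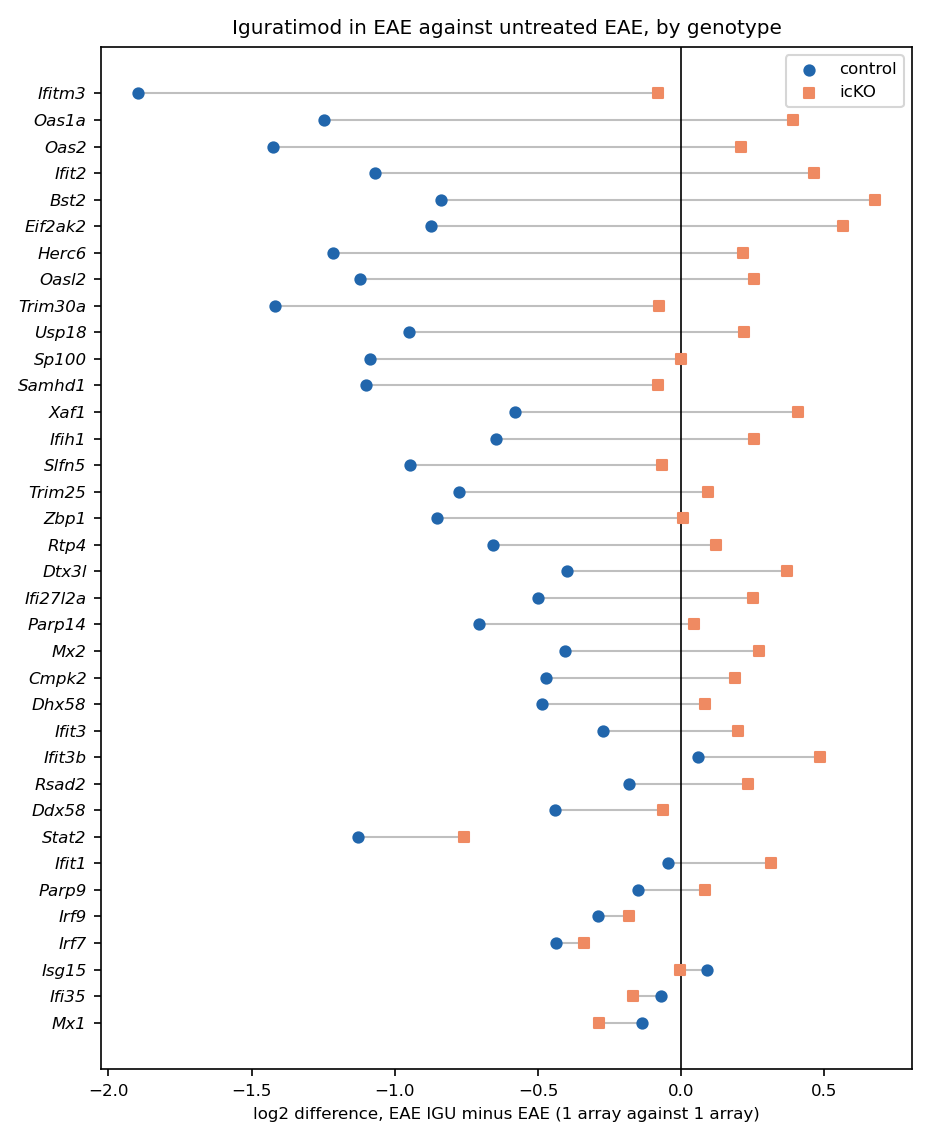
Log2 difference of EAE with iguratimod against EAE for each tested member, in control and in icKO microglia, 1 array against 1 array. In control 34 of 36 points lie below 0, and in icKO 24 of 36 lie above 0.

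By direction, 23 of 36 members were lower in control and higher in icKO, against 23.8% of all genes. A further 11 were lower in both genotypes, Ifit3b was higher in both, and Isg15 was higher in control and lower in icKO. The iguratimod change was higher in icKO than in control in 33 of 36 members (49.0% of all genes), with Mx1, Isg15 and Ifi35 as the exceptions. The control iguratimod array lay closer to the control naive than to the control EAE array in 29 of 36 members (56.0% of all genes). For icKO that held in 1 of 36, Ifit3b (49.4%). The icKO iguratimod array was the highest of the 8 arrays in 19 of 36 members, against 7.78% of all genes, and these included Ifit1, Ifit2, Ifit3b, Oas1a, Oas2, Oasl2, Usp18 and Rsad2.

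Within the iguratimod state the icKO array was above the control array in 35 of 36 members, with a median of 0.82 against -0.019 over all genes tested. In 11 members the icKO array was at least 2-fold higher (1.26% of all genes), and in none was it 2-fold lower (1.95%). Oas1a differed most, by 2.12, or 4.34-fold, followed by Ifit2 (1.67), Oas2 (1.66), Usp18 (1.58) and Ifitm3 (1.42). Isg15 was the 1 member lower in icKO, by 0.15. The median was 0.81 after quantile normalization and 0.91 with arrays centred on their medians.

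The genotype difference of the iguratimod change was fitted with limma, with 1 residual degree of freedom, and no gene of 18319 passed. Among members the lowest adjusted p was 0.588, and 15 of 36 had an unadjusted p under 0.05, all with the higher change in icKO, against 3.43% of all genes (4.96% in the lower direction). The largest were Ifitm3 (1.82 ± 0.43), Oas1a (1.64 ± 0.29), Oas2 (1.63 ± 0.38), Ifit2 (1.53 ± 0.28) and Bst2 (1.52 ± 0.26). A fit chosen after the data were seen, in which only the iguratimod state has a genotype effect of its own, left 2 residual degrees of freedom. It rests on the same arrays and is no independent support; it also called no gene, with a lowest adjusted p of 0.545.

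Averaged over genotypes, no member passed for EAE with iguratimod against EAE (limma; 0.0% of all genes in either direction). The median was -0.24, the lowest adjusted p among members was 0.521, and Irf7 and Stat2 had an unadjusted p under 0.05, both lower (5.56% of all genes, and 2.93% higher). Both iguratimod arrays lay below both EAE arrays in 6 members, Irf7, Stat2, Ifitm3, Samhd1, Trim30a and Sp100 (18.8% of all genes). Both lay above in Ifit3b (14.9%). The median without the control iguratimod array was 0.081 and without the icKO array -0.70, so the direction rests on which array is used. Against naive, no member passed either (0.00546% of all genes higher), with a median of 0.75 and a lowest adjusted p of 0.162. There 21 of 36 had an unadjusted p under 0.05, all higher (7.15% of all genes, and 3.76% lower), and in 31 of 36 both iguratimod arrays lay above both naive arrays (20.7%). That median was 1.20 without the control iguratimod array and 0.35 without the icKO array. The 2 comparisons share the iguratimod arrays.

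Other lists moved with the same arrays. The median of the tested monocyte markers differed between iguratimod and EAE by -1.45 in control and -0.68 in icKO, and that of the neutrophil markers by -4.08 and 0.35. Interferon gamma targets differed by -0.55 and -0.37. Within the iguratimod state, the median of icKO minus control was 1.20 in monocyte markers and 1.79 in neutrophil markers. It was 0.52 in interferon gamma targets and -0.090 in microglia markers. The part of these cells in the members' values was not tested.

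**Figure D4:**
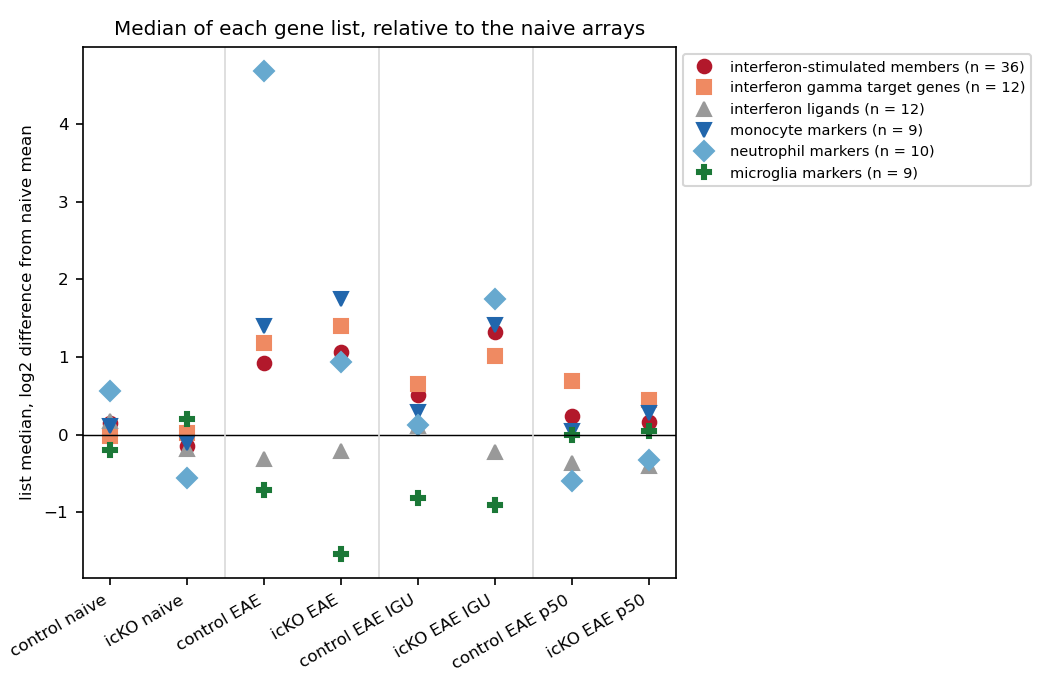
Median of each gene list on each array, as the log2 difference from the mean of the 2 naive arrays. The members' median is 0.93 and 1.06 in EAE, 0.51 and 1.32 with iguratimod and 0.24 and 0.16 in p50 (control, then icKO), and monocyte markers stand at 1.40 and 1.75, 0.29 and 1.41, and 0.05 and 0.27.

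In EAE p50 most members were near naive. Against naive, 26 of 36 were higher and 10 lower on the fitted difference, with a median of 0.19 against 0.01 for all genes. Bst2 was the 1 member that passed, rising by 3.01 ± 0.36 (adjusted p = 0.0339; 0.366% of all genes passed higher and 0.426% lower). The call was absent without a filter and when a naive or p50 array was left out. Both p50 arrays lay above both naive arrays in 19 members (31.6% of all genes) and below in 6 (26.9%), namely Ifit1, Ifit3, Ifit3b, Isg15, Xaf1 and Rtp4. Ifit3b had the lowest of these, -0.77 ± 0.15 (adjusted p = 0.0784). Unadjusted p was under 0.05 in 5 members higher (12.3% of all genes) and 2 lower, Ifit1 and Ifit3b (8.23%).

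Against EAE, both p50 arrays were below both EAE arrays in 35 of 36 members, a pattern of 31.0% of all genes, and the median difference was -0.78. Zbp1, Ifit1 and Rsad2 fell (1.61% of all genes passed lower), by 1.45 ± 0.24 (adjusted p = 0.0437), 1.08 ± 0.17 (adjusted p = 0.0412) and 1.03 ± 0.18 (adjusted p = 0.0490). Ifitm3 differed by -2.07 ± 0.47 (adjusted p = 0.0865). Bst2 was the exception, higher in p50 by 1.76 ± 0.36 (adjusted p = 0.0707; 1.09% of all genes passed higher). The count of falls was 0 without a filter, 1 (Ifit1) after quantile normalization, 9 without either iguratimod array, and 0 without any 1 of the naive, EAE or p50 arrays. This comparison shares the EAE arrays with EAE against naive. Cell markers moved in it too: all 8 tested monocyte markers were lower, with a median of -1.50, and Ly6c2 fell by 4.41 ± 0.40 (adjusted p = 0.00833). All 9 neutrophil markers were lower without passing, with a median of -3.61. Of 9 microglia markers 8 were higher, with a median of 0.88, and Tmem119 rose by 0.90 ± 0.16 (adjusted p = 0.0484). The part of these cells in the members' difference was not tested.

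**Figure D5:**
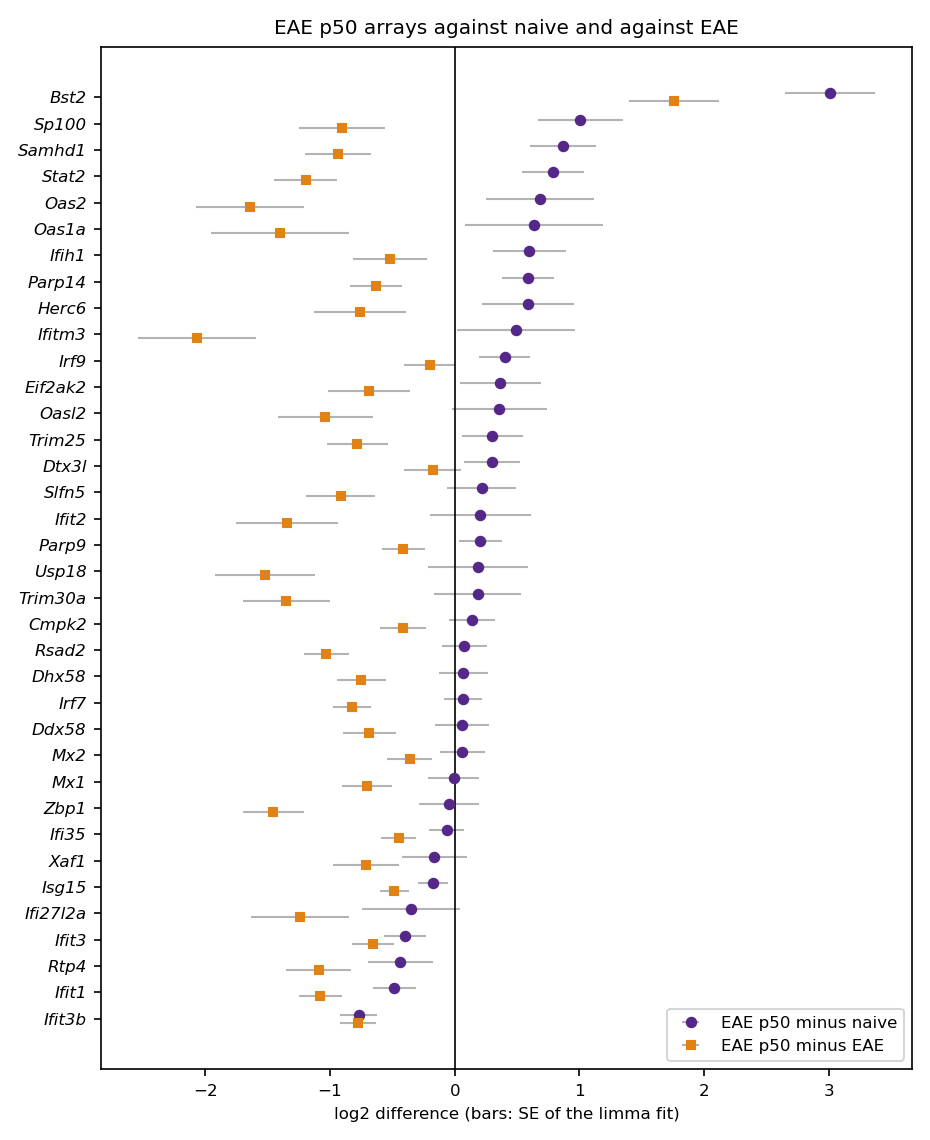
Fitted log2 difference of EAE p50 against naive (circles) and against EAE (squares) for each tested member, with standard errors as bars. Against EAE 35 of 36 members lie below 0, and Bst2 lies at 3.01 against naive and 1.76 against EAE.

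The control p50 array lay closer to naive than to EAE in 33 of 36 members (41.2% of all genes), except Ifih1, Bst2 and Samhd1. The icKO p50 array did so in 29 of 36 (52.2%), except Irf9, Ifit3b, Herc6, Parp14, Dtx3l, Bst2 and Sp100. Being closer to EAE does not place a gene between naive and EAE. Bst2 in p50 lay above both states in both genotypes, and Ifit3b in icKO lay below both. Of the 5 tested markers of plasmacytoid dendritic cells, a cell type for which Bst2 is also a marker, none passed in p50 against naive, with a median of 0.12. The part of these cells in the Bst2 values was not tested. The p50 arrays also differed from the other 6 in sex-linked genes. Xist lay at 15.90 and 16.64 there and between 7.71 and 8.30 elsewhere, and Uty at 7.34 and 7.57 against 8.98 to 9.60. The sex of the mice and the p50 label cannot be told apart.

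Between genotypes over the 4 states no member passed (limma; 0.0% of all genes in either direction). The median difference was 0.16, the lowest adjusted p among members was 0.883, and Ddx58 alone had an unadjusted p under 0.05 (0.41 ± 0.15; 1.93% of all genes higher and 3.52% lower). The icKO array was above the control array in every state in Ddx58, Ifit2, Trim25 and Parp14 (4.9% of all genes), and below in Isg15 (7.9%). By state the member median was -0.15 in naive, 0.00 in EAE, 0.82 with iguratimod and 0.092 in p50. No member was past 2-fold outside the iguratimod state, where the shares of all genes higher and lower were 0.262% and 1.64% in naive, 1.27% and 0.562% in EAE, and 0.289% and 0.0928% in p50. Without either iguratimod array the median over states was -0.013. The genotype difference of the EAE change had a median of 0.15, no gene passed, and no member had an unadjusted p under 0.05 (4.57% of all genes higher and 1.64% lower).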

How the data were processed

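Microglial RNA, extracted with TRIzol and a column kit and labelled through the GeneChip WT Pico kit, per the labels' protocols, was measured on 8 Affymetrix arrays. Affymetrix Expression Console is the tool in the submitters' processing notes, whereas summarisation and normalization are not given in the sources used here. The deposited values are linear intensities by their range. Of 65956 rows, 31258 had 1 gene symbol after merging older and current names through RefSeq (GRCm38.p6), 1492 had several and 33206 were unnamed here. A gene's brightest probe set was used, and no member had several. The analysis used log2(intensity + 16), a scale on which changes of dim genes are understated.

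No group has a replicate array, so states and genotypes were compared with limma 3.58.1 in R 4.3.3 (lmFit, eBayes) in a model additive in state and genotype, with a prior SD of 0.16, 3 residual degrees of freedom and Benjamini-Hochberg adjustment over 18319 genes. In this model a genotype difference that varies between states counts as spread. Whether arrays came from separate animals is not given, so p-values measure only the spread between these arrays, and their number limits the precision. Single pairs of arrays were not tested, and at least 2-fold was counted. The fits were run on simulated arrays with known changes and independent noise. That checks the calculation and cannot show how the tests behave on these arrays.

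The members and lists were chosen with earlier results of these data known. Values on every array are given for members that passed any comparison over all arrays, and for the highest and lowest EAE difference of each role group; Oas1a and Ifnb1 were added after their values were seen. Alternatives were other filters, normalizations, pseudocounts, probe set averages and priors, leaving out arrays, and a shorter promoter window.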

Additional observations from a re-analysis of the deposited data

Results flagged for a closer look

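The members' median difference between iguratimod and EAE had opposite signs in the 2 genotypes, -0.65 in control and 0.15 in icKO microglia. By member, 23 of 36 were lower in control and higher in icKO, 11 were lower in both, 1 was higher in both, and 1 was higher in control and lower in icKO. The difference between genotypes also varied with the state: the median of icKO minus control over the 36 tested members was -0.15 in naive, 0.0012 in EAE, 0.82 in EAE with iguratimod and 0.092 in EAE p50. Each of these medians compares 1 array with 1 array, and the differences between the medians were not tested.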

How the results depend on the processing

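No paired analysis was possible because each group holds 1 array and the arrays share no replicate number that marks an animal, litter or day. The number of members higher in EAE than in naive at the adjusted threshold was 9 and became 2 without a filter, 1 after quantile normalization and 1 without both p50 arrays. Leaving out 1 array at a time gave 0 to 18. For p50 against naive the count of 1 became 0 without a filter and 0 to 1 when an array was left out. For p50 against EAE the 3 lower members became 0 without a filter, 1 after quantile normalization and 0 to 9 when an array was left out, and the 0 higher members became 1 with the filter at the 70th percentile and 0 to 1 when an array was left out. With an array left out, member medians ran from -0.70 to 0.081 for iguratimod against EAE, from 0.35 to 1.20 for iguratimod against naive, from -0.043 to 0.41 for p50 against naive and from -0.013 to 0.30 for icKO against control. The medians kept their sign with an array left out for EAE against naive (0.85 to 1.22) and p50 against EAE (-0.98 to -0.72). The Ifit3b difference in EAE turned to -0.087 after quantile normalization and ran from -0.12 to 0.12 with an array left out, below 0 without the control naive (-0.025) or the control EAE array. The Cmpk2 difference of icKO against control, -0.12, ran from -0.20 to 0.018 and was above 0 without either EAE array. The ISRE core lay in 28.6% of member windows when only the 150 bases before the start were read, against 1.85% of all genes. For GAS these shares were 7.14% and 4.77%. A lone array left in a state is assumed to vary like the others. Depth is not a property of arrays, and near the background a low level and no expression look alike.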
